A study of Mus musculus with 15 samples.

Results

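Liver RNA of C57BL/6 mice, an inbred laboratory strain, was compared between the embryonic stages E14.5 and E17.5, named by days of gestation. The arrays were chosen by their sample titles, 3 of E14.5 and 3 of E17.5, and make up 6 of the 15 arrays of a series that also holds E12.5, neonatal and adult (8 weeks) liver with 3 arrays each. All groups are whole livers of the same strain with no treatment or engineered allele given in the labels, and pooling and sex are not stated there. Whether replicate arrays came from different animals is not stated either, so p-values cover only the spread among these samples, and part of it may be technical.

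In midgestation the fetal liver is the main site of blood formation, and immature hepatocytes share the organ with erythroid and other blood precursors. Towards birth blood formation moves to the bone marrow and spleen while hepatocytes take up metabolic and secretory functions. Long intergenic noncoding RNAs (lincRNAs) are transcripts without a known protein product that lie between protein-coding genes. In whole tissue, fewer cells of a type and less RNA per cell cannot be told apart.

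The samples were hybridised in 1 colour to Agilent arrays that carry probes for messenger RNAs and lincRNAs. Signals are given as log2 of the processed spot signal after subtraction of the 75th percentile of all noncontrol probes on that array, so a value of 0 is the brightness at that percentile and a step of 1 is a doubling. A feature was tested when it was well above background on all 3 arrays of E14.5 or of E17.5, which 32773 of 59705 features were. A feature was called at a Benjamini-Hochberg adjusted p under 0.05 in a limma fit over the 15 arrays. A gene symbol was matched to few probes, and only 70 features with a symbol were tested. Most tested features, 29685, carry the maker's ID alone.

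Among the 6 arrays E17.5 replicate 1 stood apart. On it 80.9% of noncontrol spots and 55.8% of negative-control spots were well above background, against 53.5% to 58.7% and 4% to 6.58% on the other 5. E17.5 replicate 3 was scanned with the neonatal and adult arrays, and the other 5 with the E12.5 arrays. The liver label could be checked against 1 of 14 listed hepatocyte markers, Gk, and 1 of 13 listed erythroid markers, Tfrc, and no probe was matched to the markers Alb, Afp, Hba-a1 or Hbb-y. No probe was matched to any listed marker of macrophages, endothelium, stellate cells, bile ducts or gut, so the part of a changing cell makeup in the results below was not tested.

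Among the called features, rises outnumbered falls between E14.5 and E17.5. Of the features tested, 2033 (6.20%) were called, of which 1728 (5.27%) were higher at E17.5 and 305 (0.931%) lower. The features that rose did so by a median log2 difference of 1.64 (quartiles 1.27 and 2.26), 571 of them at least 4-fold and 65 at least 16-fold. The features that fell changed less, by a median of −1.15 (quartiles −1.37 and −1.01), 12 of them at least 4-fold and 0 at least 16-fold. Of the rises 456, and of the falls 25, passed the filter only through the brighter stage. Their sizes rest partly on signals near background, so the sizes of rises and falls are not fully comparable. The median difference of all tested features was −0.13. In all, 1831 features (5.59%) were called and changed at least 2-fold.

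**Figure D1:**
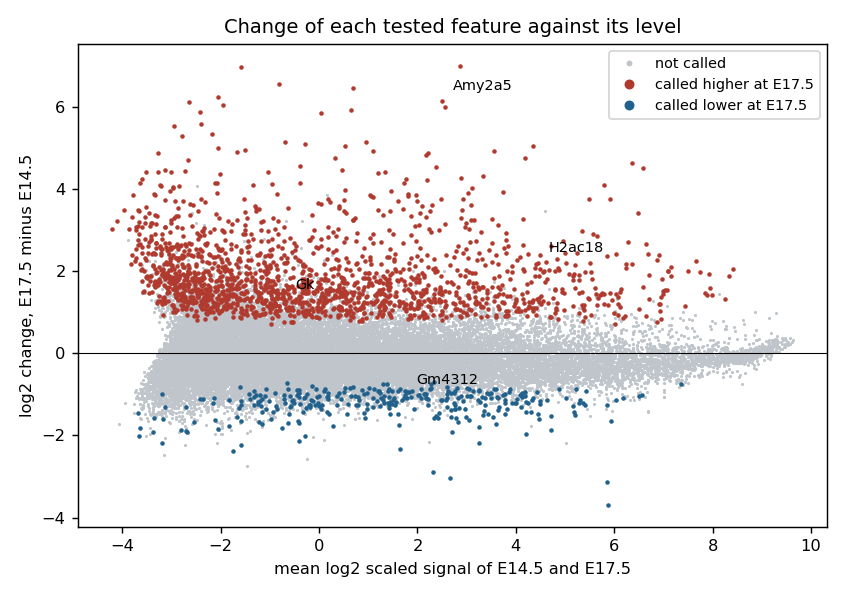
Log2 change of each tested feature from E14.5 to E17.5 (vertical axis) against its mean log2 scaled signal over both stages (horizontal axis); points are features, red called higher and blue called lower at E17.5. The 1728 features called higher reach a log2 change of 6.99, and the 305 called lower reach −3.69.

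The arrays of the called features kept apart. All 3 E17.5 arrays lay above all 3 E14.5 arrays for 1722 of the 1728 features that rose, against 14% of all tested features. They lay below for 304 of the 305 that fell, against 15.4% of all tested features. Since the calls were made on the same values, these counts describe the called features and support nothing further. The filter also fixed part of the balance. Of the tested features 27256 were above background on every array of both stages, and there 1272 rose and 280 fell. Another 1044 passed only through E17.5 and 4473 only through E14.5, of which 456 rose and 25 fell.

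The balance of rises over falls varied with the scaling of the arrays. Higher features made up 85% of the calls, against 68.6% with quantile normalization and 68% with normexp background correction. The share was 70.3% with a common floor under dim signals and 71.1% in the authors' value table. Across all alternatives it ran from 59.4% with array weights to 95.9% without E14.5 replicate 1. With the scan as a block 1778 features were called higher and 835 lower, and within the first scan, which leaves out E17.5 replicate 3, 1123 higher and 312 lower. The number of falls was 1764 with array weights, 1040 with normexp and 893 with quantile normalization. With 1 array left out it was 44, 55 and 85 without E14.5 replicates 1, 2 and 3, and 835 without E17.5 replicate 3. The rises numbered 1034 without E14.5 replicate 1 and 1111 without E14.5 replicate 2.

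The 3 E17.5 arrays differed from E14.5 in ways that depended on the signal level. Among the dimmest of 4 equal groups of tested features the median difference from the E14.5 mean was 0.49 on replicate 1, 0.01 on replicate 2 and −0.46 on replicate 3. Among the brightest group it was −0.47, −0.16 and 0.24. Replicates 1 and 3 thus ran in opposite directions along the signal range. Replicate 2 was nearest to E14.5 in these end groups, and in the third group replicate 3 was, at −0.03 against −0.07. Their part in the calls was not tested beyond the alternatives above.

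**Figure D2:**
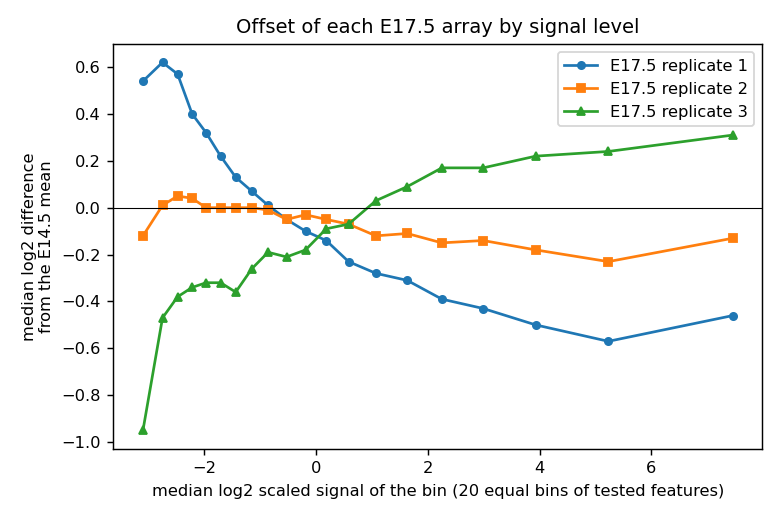
Median log2 difference of each E17.5 array from the mean of the E14.5 arrays (vertical axis) in 20 equal bins of tested features ordered by signal (horizontal axis, median log2 scaled signal of the bin). Replicate 1 falls from 0.54 in the lowest bin to −0.46 in the highest, replicate 3 climbs from −0.95 to 0.31, and replicate 2 runs between −0.23 and 0.05.

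The E12.5, neonatal and adult arrays took no part in the difference between E14.5 and E17.5, although all 15 arrays shared the estimate of each feature's spread. From E12.5 to neonatal liver 16.2% of the tested features were called higher and 25.2% lower. Among the 1728 features that rose between E14.5 and E17.5, 1474 (85.3%) were called higher in neonatal than in E12.5 liver and 1.5% lower. Among the 305 that fell, 230 (75.4%) were called lower and 0.328% higher. The median differences were 2.37 and −1.24. E12.5 and neonatal arrays lay in different scans, so stage and scan cannot be told apart in that comparison.

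From neonatal to adult liver, where all arrays lay in 1 scan, the background was 12.6% called higher and 15% called lower. The features that rose before birth split there, with 31.1% called higher and 22.5% lower in the adult. Those that fell before birth were lower in the adult in 31.5% and higher in 5.57%. On single arrays the median signal of the features that rose ran from −1.70 to −1.64 at E12.5, −1.41 to −1.34 at E14.5, 0.37 to 0.46 at E17.5 and 0.92 to 0.95 in neonatal liver. The step from E14.5 to E17.5 is part of the choice of these features, whereas the neighbouring stages are not.

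**Figure D3:**
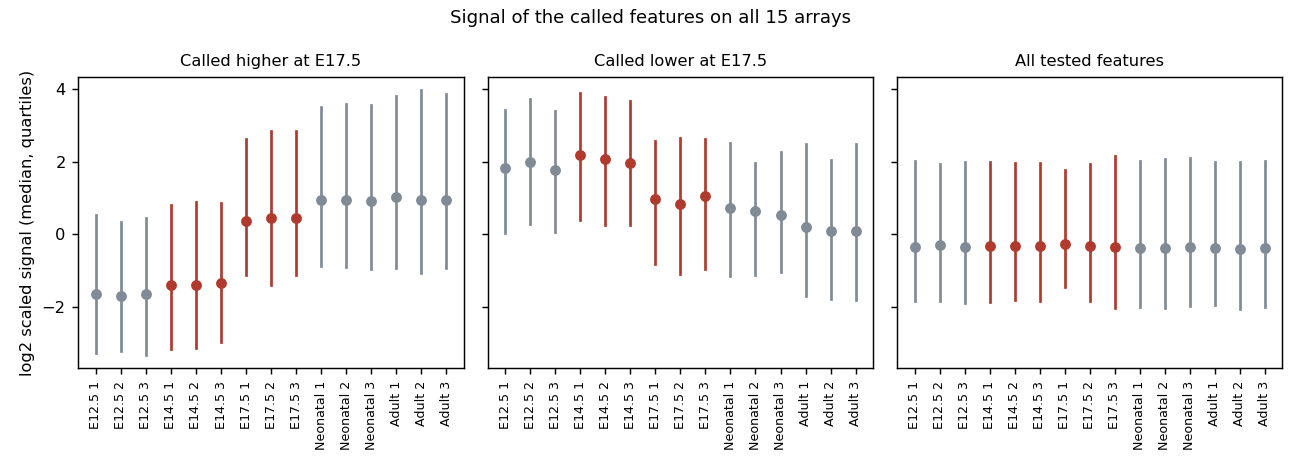
Median (point) and quartiles (line) of the log2 scaled signal on each of the 15 arrays, for features called higher at E17.5, called lower at E17.5 and all tested features; E14.5 and E17.5 arrays are red and the others grey. The median of the features called higher lies between 0.92 and 0.95 on the neonatal arrays and between −1.70 and −1.64 on the E12.5 arrays.

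Among genes with a symbol, Amy2a5 rose most. It encodes a pancreatic-type alpha-amylase, a secreted enzyme that splits starch, and lies in a cluster of near-identical amylase genes, so the copy that gave the signal is uncertain. Its scaled log2 signal was −0.55, −0.37 and −0.81 on the E14.5 arrays and 5.41, 5.87 and 5.42 on the E17.5 arrays. The groups were far apart, and the difference of 6.14 ± 0.30 (SE) is 70.5-fold (adjusted p = 7.38e-08, limma). The neonatal arrays lay at 6.03 ± 0.46 (SD, n = 3) and the adult arrays lower, at 2.26 ± 0.28 (SD, n = 3). Neonatal to adult, the level fell by 3.77 on the log2 scale (SE 0.30, adjusted p = 3.15e-07, limma). Of 13 listed markers of pancreatic acinar cells Amy2a5 was the only 1 with a matched probe, and pancreatic tissue in the samples was not tested.

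H2ac18, a gene for the core histone H2A, rose as well. Its signal was 3.48, 3.38 and 3.17 at E14.5 and 5.48, 5.53 and 5.62 at E17.5. All E17.5 arrays lay close together and above E14.5, with a difference of 2.20 ± 0.24 (SE), or 4.59-fold (adjusted p = 4.13e-05, limma). It was also higher in neonatal than in E12.5 liver by 3.78 ± 0.24 (SE, adjusted p = 2.46e-08, limma) and in adult than in neonatal liver by 1.15 ± 0.24 (SE, adjusted p = 0.00231, limma). H2A genes of this kind are replication-dependent, with messages made mainly in S phase and ending in a stem loop in place of a poly(A) tail.

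The other H2A features did not pass the test. H2ac19, a neighbouring copy of H2ac18, had 8.52, 7.97 and 8.44 at E14.5 and 7.76, 7.23 and 8.55 at E17.5. The groups overlapped, and the difference was −0.46 ± 0.32 (SE, adjusted p = 0.424, limma). H2ac23 lay at 1.13, 1.1 and 1.1 and then at −0.28, −0.19 and 0.27, without overlap, with a difference of −1.18 ± 0.43 (SE) and an adjusted p of 0.132 in limma, and it was called lower in 3 of 23 alternative settings. H2al2b, a testis H2A variant, had a difference of −0.47. So 1 of 4 tested histone features was called, beside 6.20% of all features, and their median was −0.46 beside −0.13 over all features.

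The promoters of Amy2a5, H2ac18 and H2ac19 are shown because the first 2 genes had the largest called rises among named genes and the third is the near copy that was not called. Each is the 250 bases before the annotated start in RefSeq (GRCm38.p6, another build than the arrays' grid), with TATAAA and CCAAT on either strand in capitals.
Amy2a5 (chr3:113258700-113258949, minus strand): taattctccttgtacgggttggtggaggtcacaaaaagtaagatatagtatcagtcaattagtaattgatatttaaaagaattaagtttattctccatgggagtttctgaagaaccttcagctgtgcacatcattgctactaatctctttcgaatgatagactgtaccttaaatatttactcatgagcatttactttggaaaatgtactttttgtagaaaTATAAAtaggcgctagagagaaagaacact
H2ac18 (chr3:96245247-96245496, plus strand): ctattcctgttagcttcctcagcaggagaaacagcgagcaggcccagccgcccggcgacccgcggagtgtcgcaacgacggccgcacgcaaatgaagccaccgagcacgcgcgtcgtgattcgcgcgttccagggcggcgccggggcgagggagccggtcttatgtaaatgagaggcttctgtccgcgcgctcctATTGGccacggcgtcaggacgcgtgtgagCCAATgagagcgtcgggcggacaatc
H2ac19 (chr3:96240375-96240624, minus strand): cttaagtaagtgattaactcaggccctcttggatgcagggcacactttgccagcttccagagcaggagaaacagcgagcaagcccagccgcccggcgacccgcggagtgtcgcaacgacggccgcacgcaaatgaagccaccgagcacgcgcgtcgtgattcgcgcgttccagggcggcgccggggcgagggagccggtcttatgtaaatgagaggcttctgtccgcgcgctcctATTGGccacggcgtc

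The Amy2a5 window holds TATAAA on the gene's strand, 30 bases before the start. Of 32851 RefSeq promoter windows of this length, 7.6% hold it on the gene's strand and 12.4% on either strand, at any position. H2ac18 holds CCAAT 26 bases before the start on its own strand and 55 bases before on the other, and H2ac19 holds it once, 15 bases before on the other strand. CCAAT occurs on either strand in 33.8% of the windows. Set against each other with a shift of 40 bases, the H2ac18 and H2ac19 windows are identical at 199 of 210 positions (94.8%). With this shift the H2ac19 site lines up with the H2ac18 site 55 bases before the start. The H2ac18 site 26 bases before the start lies in the last 40 bases of its window, past the end of the H2ac19 window. Whether H2ac19 holds that site too was not tested, so the sites listed show no difference between the promoters. How far the probe of either gene also binds RNA of the other copy was not tested.

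Gk, glycerol kinase, which phosphorylates glycerol for use in glucose and lipid synthesis, passed the test only as the mean over its spots. The means were −1.43, −1.27 and −1.37 at E14.5 and −0.32, 0.17 and 0.01 at E17.5. The groups did not overlap, and the difference of 1.31 ± 0.29 (SE), or 2.48-fold, had an adjusted p of 0.014 in limma.

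The Gk probe had 20 spots per array, and they split at E14.5 and also at E12.5. On E14.5 replicates 1, 2 and 3, 8, 6 and 7 of the spots lay more than 1 log2 unit under the array's median spot, and 6 spot positions were dim in this way on all 3 arrays. On the E17.5 arrays 0 spots lay so low, and the spread between spots was 0.08 to 0.31 (SD) against 1.09 to 1.28 at E14.5. Of the 15 probes with 20 spots, the others had 0 such spots at E14.5. The E12.5 arrays together had 15 such Gk spots, against 21 on the E14.5 arrays. With the median over spots the E14.5 values were −0.65, −0.68 and −0.69 and the E17.5 values −0.21, 0.29 and 0.01. The difference was then 0.71 with an adjusted p of 0.189 in limma, so the call depended on how the spots were joined. It was also lost without E14.5 replicate 1, E14.5 replicate 3 or E17.5 replicate 2, at adjusted p up to 0.0655.

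Gm4312, a predicted gene, fell. Its signal was 2.31, 2.31 and 2.15 at E14.5 and 1.25, 0.87 and 1.58 at E17.5, with every E17.5 array below every E14.5 array. The difference was −1.02 ± 0.24 (SE, adjusted p = 0.0174, limma), and the level was lower again in adult than in neonatal liver by 1.55 on the log2 scale. The call was lost without E14.5 replicate 1, E14.5 replicate 2 or E17.5 replicate 2, at adjusted p up to 0.0809. A coding feature that carries the accession NM_011667, with no symbol in the tables used, had a difference of −1.09 ± 0.29 (SE, adjusted p = 0.0368, limma), and this call was lost in 12 of 23 alternative settings, among them the scan block (−0.80, adjusted p = 0.0826, limma).

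**Figure D4:**
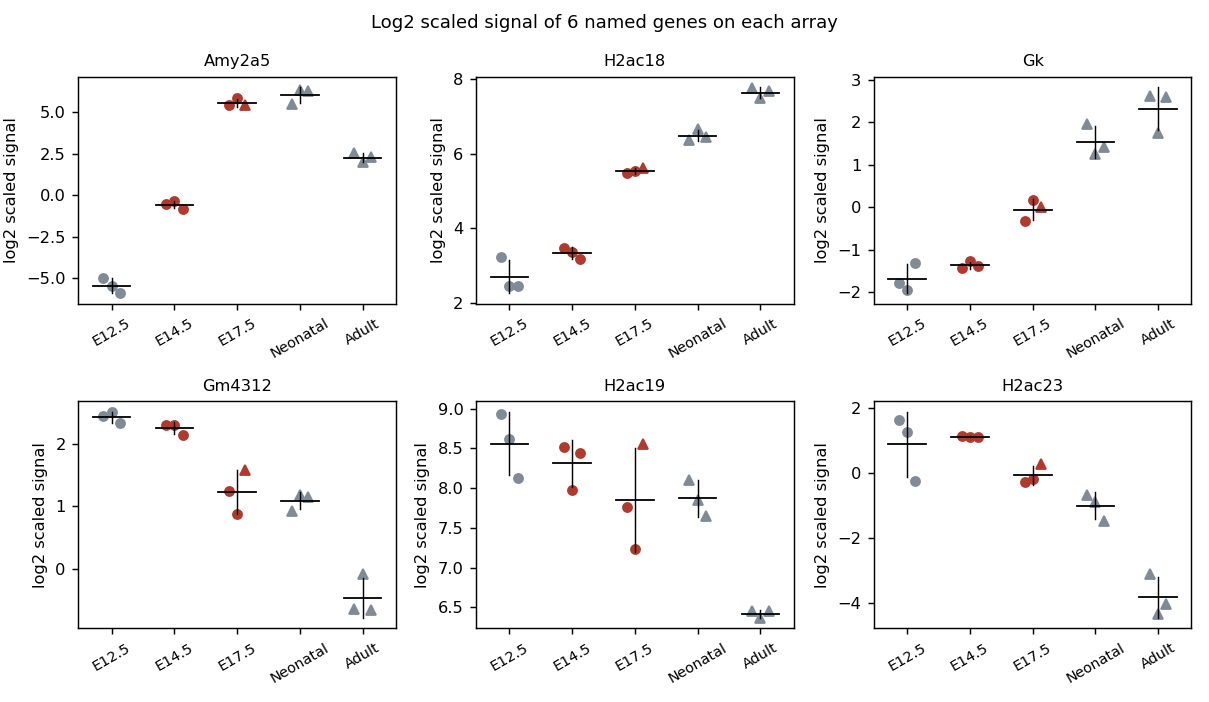
Log2 scaled signal of 6 genes on each of the 15 arrays by stage; bars are means with SD over 3 arrays, E14.5 and E17.5 are red, and circles and triangles are the first and second scan. Amy2a5 rises from −0.58 to 5.56 and H2ac18 from 3.35 to 5.54 between the E14.5 and E17.5 means, whereas the H2ac19 arrays of both stages overlap.

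Genes of metabolism and blood with a matched probe were few. Hmgcs1, which makes the HMG-CoA used in cholesterol synthesis, lay at 7.32, 7.36 and 7.34 at E14.5 and 7.55, 7.79 and 8.29 at E17.5. The groups did not overlap, yet the difference of 0.54 ± 0.28 (SE) had an adjusted p of 0.287 in limma. Tmlhe, an enzyme of carnitine synthesis, differed by 0.43 with overlapping arrays. Tfrc, the transferrin receptor that brings iron into erythroid precursors and other dividing cells, lay at 9.03, 8.79 and 8.76 and then at 8.10, 8.38 and 9.27. E17.5 replicate 3 was the highest and replicate 1 the lowest of these 6 arrays, and the difference of −0.28 ± 0.33 (SE) had an adjusted p of 0.67 in limma.

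Immune genes did not pass the test either. B2m, the light chain of class I antigen-presenting molecules, differed by 0.58 ± 0.31 (SE, adjusted p = 0.307, limma), with all E17.5 arrays above E14.5. The lymphoid chemokine genes Ccl21b and Ccl21c, near-identical copies of each other, differed by −0.68 and −0.61, both with all E17.5 arrays below E14.5, at adjusted p of 0.314 and 0.304 in limma. Ccl28, a mucosal chemokine, was above background on 1 of 3 E14.5 arrays and all 3 of E17.5, and its groups overlapped. Of 12 vomeronasal receptor genes with a probe 6 were tested and 0 called (6.20% over all features), at differences from −1.07 to −0.22. For each tested one except Vmn1r241, E17.5 replicate 3 was the lowest of the 6 arrays.

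Of 11 reference and growth genes 0 were called where 6.20% of all tested features were, a share that makes 0 of 11 no result about them, with a median difference of −0.08 beside −0.13 over all features. The ribosomal protein gene Rpl13a came nearest. Its signal was 6.52, 6.48 and 6.57 at E14.5 and lower on each E17.5 array, at 5.40, 5.75 and 6.27, with a difference of −0.72 ± 0.23 (SE, adjusted p = 0.0856, limma). It was called lower in 9 of 22 alternative settings. Actb on E17.5 replicates 1, 2 and 3 lay −0.43, −0.03 and 0.67 from its E14.5 mean, the same order of arrays as in the brightest group of features. The probes with 20 spots other than G6pd2, Gk and Ldhal6b all showed this order.

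Of all tested features 5.27% were called higher and 0.931% lower. The lincRNA exon probes, the largest noncoding class, counted 1583 tested features, of which 78 (4.93%) were called higher and 14 (0.884%) lower, with a median of −0.13. Rises outnumbered falls in this class under every alternative. Human lincRNA probes had 6 rises (1.79%) and 2 falls (0.597%) among 335 tested and mouse lincRNA probes 4 (1.99%) and 2 (0.995%) among 201. Probes for ultraconserved elements, genome segments identical between distant mammals, had 9 (3.19%) and 2 (0.709%) among 282. The medians of these classes were −0.30, −0.38 and −0.24. In these 3 classes quantile normalization turned the balance, with 4 rises and 13 falls, 2 and 7, and 7 and 10. For human lincRNAs falls also outnumbered rises in the authors' value table (3 and 5) and with E17.5 replicate 2 alone (5 and 8). For mouse lincRNAs they did so in the authors' table, with the common floor and with the filter on both stages (each 2 and 3), with normexp (3 and 8), and with E17.5 replicate 2 alone and quantile normalization with the scan block (each 4 and 5).

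Of lincRNA exons above background on all 6 arrays MM9LINCRNAEXON10174- rose most. Its 3 E14.5 arrays read −2.84, −2.76 and −2.75 and its E17.5 arrays 0.42, 0.70 and 0.10, a difference of 3.19 ± 0.39 (SE, adjusted p = 0.000185, limma). The rise was 9.12-fold with no overlap, and from neonatal to adult liver the signal fell by 3.36 on the log2 scale. The E14.5 signals were near background, as the 95th percentile of negative-control spots lay at −3.41, −3.03 and −3.14 on those arrays. Across alternatives the difference of this exon ran from 1.96 to 3.48. MM9LINCRNAEXON11750+ went from 0.04, 0.95 and 0.13 to 3.07, 3.65 and 2.43, a difference of 2.67 ± 0.33 (SE, adjusted p = 0.000141, limma). Its E14.5 arrays were also below the E12.5 arrays, which lay at 2.46 ± 0.02 (SD, n = 3).

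The 2 lincRNA exons with the largest falls were smaller changes. MM9LINCRNAEXON10545- had 3.06, 3.35 and 2.99 at E14.5 and 1.80, 1.85 and 1.20 at E17.5, a difference of −1.52 (adjusted p = 0.0139, limma). MM9LINCRNAEXON10321- differed by −1.42 (adjusted p = 0.016, limma). The first call was lost without E14.5 replicate 2, and the second without E14.5 replicate 2, E14.5 replicate 3 or E17.5 replicate 2.

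Among mouse lincRNA probes mouselincRNA0453+ rose from 1.65, 1.28 and 1.28 to 4.79, 4.47 and 4.47. This is 9.02-fold, a difference of 3.17 ± 0.24 (SE, adjusted p = 1.61e-06, limma), with tight arrays in both stages. mouselincRNA1468- rose from −1.92, −1.92 and −2.29 to 0.81, 1.15 and −1.48, where E17.5 replicate 3 lay well under the other E17.5 arrays. Its difference of 2.21 (adjusted p = 0.016, limma) lost the call without E14.5 replicate 1, E14.5 replicate 3, E17.5 replicate 1 or E17.5 replicate 2. The falls mouselincRNA0712- (−1.46) and mouselincRNA1103- (−0.93) were called here and lost in many alternatives, including each left-out E14.5 array.

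Human lincRNA probes above background on all 6 arrays changed in both directions. humanlincRNA1422+ rose by 1.51 and humanlincRNA0367- by 1.48 (adjusted p = 0.00411 and 0.00191, limma). The first was at −3.54 ± 0.29 (SD, n = 3) in neonatal liver, under its E17.5 level of −0.74 ± 0.15 (SD, n = 3), and the second was higher in neonatal liver, at 1.64 ± 0.19 (SD, n = 3). The call of humanlincRNA1422+ was lost within the first scan. humanlincRNA1995- (−1.34) and humanlincRNA0955+ (−1.07) were called lower, at adjusted p of 0.0434 and 0.0379 in limma, and each lost its call when any 1 of the 6 arrays was left out.

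Both strands of the ultraconserved element uc.188 rose. The plus strand went from −1.82, −1.83 and −1.76 to 0.34, 0.97 and 0.24, a difference of 2.32 ± 0.33 (SE, adjusted p = 0.000542, limma). The minus strand went from 3.29, 3.18 and 3.06 to 4.77, 5.56 and 5.16, a difference of 1.99 ± 0.27 (SE, adjusted p = 0.000368, limma). No array of 1 stage overlapped with the other stage on either strand, and both strands were higher in adult than in neonatal liver, by 1.58 and 1.72. Of 50 ultraconserved elements with both strands tested uc.188 was the only 1 with both called. Taken singly, 3.19% of tested ultraconserved probes were called higher, beside 5.27% of all tested features.

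**Figure D5:**
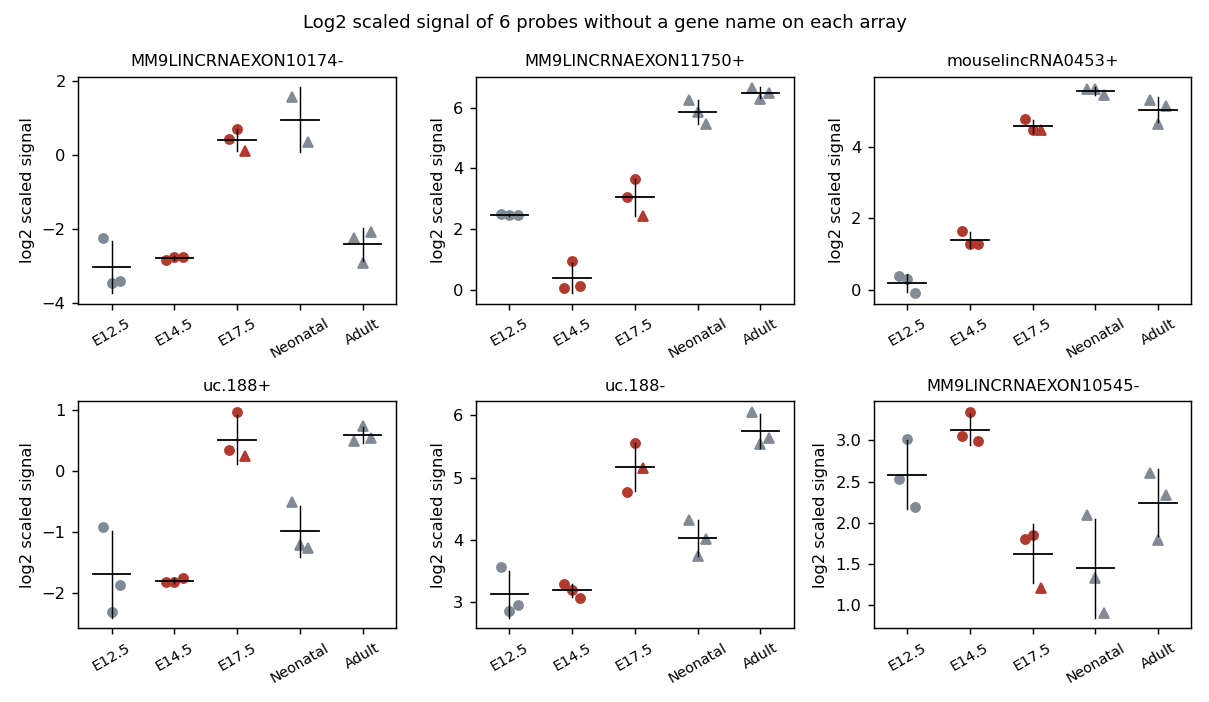
Log2 scaled signal of 6 noncoding or unnamed-gene probes on each of the 15 arrays by stage; bars are means with SD over 3 arrays (2 values for MM9LINCRNAEXON10174- in neonatal liver), E14.5 and E17.5 are red, and circles and triangles are the first and second scan. The E17.5 arrays lie above the E14.5 arrays for 5 of the probes and below them for MM9LINCRNAEXON10545-, at 1.62 against 3.13 on average.

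A pair of ultraconserved probes named here fell. uc.195- went from −0.54, −0.94 and −0.61 to −1.05, −2.68 and −2.11, a difference of −1.25 (adjusted p = 0.0481, limma), while its plus strand differed by 0.49 with overlapping arrays (adjusted p = 0.384, limma). uc.266+ differed by −1.13 (adjusted p = 0.035, limma), and its minus strand was not among the features tested. Without E17.5 replicate 3 or any 1 E14.5 array both calls were lost, and that of uc.195- also without E17.5 replicate 2. Among lincRNA exons 380 had both strands tested. Of these, 6 had both strands called higher, 0 both lower, 27 only 1 strand higher and 6 only 1 strand lower. In 0 of them were the strands called in opposite directions. Taken singly, 4.93% of tested lincRNA exon probes were called higher and 0.884% lower, beside 5.27% and 0.931% of all tested features.

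Of 612 tested features with another accession 22 (3.59%) rose and 7 (1.14%) fell, beside 5.27% and 0.931% of all tested features. C89169 rose by 1.49 and AK007918 by 1.42 (adjusted p = 0.019 and 0.0196, limma). C89169 lost its call without any 1 of the 6 arrays except E17.5 replicate 3, and AK007918 without E14.5 replicate 1, E14.5 replicate 2 or E17.5 replicate 3. CA532251 fell from −0.51, −0.65 and −1.11 to −2.40, −2.75 and −2.05, a difference of −1.64 (adjusted p = 0.00151, limma), and DV067603 by 1.73 on the log2 scale (adjusted p = 0.00751, limma). The call of DV067603 was lost within the first scan (adjusted p = 0.0627, limma). CA532251 stood at −0.66 ± 0.33 (SD, n = 3) in neonatal liver, near its E14.5 level of −0.76 ± 0.31 (SD, n = 3). Its E17.5 signals were near background, and −2.40 on replicate 1 lay under that array's 95th percentile of negative-control spots, −2.03.

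Some features were above background in 1 stage only, which gives a bound in place of a fold. For the bound the brighter stage's mean was set against a mean for the dim stage in which each array gave its lowest signal well above background, or the probe's own signal if that was higher. On all 3 E17.5 arrays and no E14.5 array there were 276, of which 228 were called, 21 of them outside the maker's IDs, and the called ones had a median bound of 2.63-fold. The reverse held for 113, of which 9 were called with a median bound of 1.45-fold. These features entered the test only through the stage in which they are bright, which fixed the direction, so the counts and the p-values below describe them and support nothing. On E17.5 replicate 1, 55.8% of negative-control spots also counted as above background. Passing on that array therefore says little, and being dim on every E17.5 array is harder, so the counts of both directions are not comparable. The raised dim signals of that array also enter the bounds. humanlincRNA0691+ was at least 4.6-fold higher at E17.5 and DY243012 at least 3.99-fold higher, at adjusted p of 1.04e-05 and 8.06e-05 in limma. MM9LINCRNAEXON10686+ was at least 1.54-fold lower (adjusted p = 0.0349, limma), a call lost when any 1 of the 6 arrays except E17.5 replicate 1 was left out. Each of these calls was lost with a common floor under dim signals, the first 2 at adjusted p of 0.0777 and 0.084 in limma.

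The largest changes of all lay in probes that carry the maker's ID alone. ASMM9PARTA032787 went from −0.56, −0.96 and −0.35 to 6.47, 6.71 and 5.90, a 127-fold rise (6.99 ± 0.64, SE, adjusted p = 9.73e-06, limma), and stayed bright in neonatal (8.11 ± 0.04, SD, n = 3) and adult liver (7.64 ± 0.27, SD, n = 3). ASMM9PARTA029830 rose 87.8-fold, by 6.46 ± 0.41 (SE, adjusted p = 3.78e-07, limma). Its E14.5 signals were dim, at −2.25, −3.07 and −2.28. On E14.5 replicate 2 the 95th percentile of negative-control spots lay at −3.03, so the size of the fold is uncertain. Across alternatives the log2 difference ran from 5.10 to 6.77. Unlike ASMM9PARTA032787, ASMM9PARTA029830 fell again after birth, by 7.72 on the log2 scale between neonatal and adult liver (adjusted p = 4.82e-09, limma).

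The largest falls were in a pair of probes that were bright at E14.5. ASMM9PARTA028035 went from 7.72, 7.80 and 7.61 to 4.49, 3.14 and 4.44, a 12.9-fold fall (−3.69 ± 0.34, SE, adjusted p = 9.73e-06, limma). ASMM9PARTA028001 went from 7.58, 7.48 and 7.23 to 4.43, 3.77 and 4.67, an 8.81-fold fall (−3.14 ± 0.31, SE, adjusted p = 1.93e-05, limma). Both were brightest at E12.5, at 9.38 ± 0.37 and 9.34 ± 0.50 (SD, n = 3), and both fell further from neonatal to adult liver, by 4.31 and 1.73 on the log2 scale. These 4 probes were called in the same direction in each of the 23 alternative settings. So were Amy2a5, H2ac18, MM9LINCRNAEXON10174-, MM9LINCRNAEXON11750+, mouselincRNA0453+, both strands of uc.188 and CA532251. The size of the CA532251 fall varied among these settings, with differences from −2.52 to −0.81.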

How the data were processed

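Per the file headers, the deposited spot intensity values are linear, background-subtracted and spatially detrended by Agilent Feature Extraction 11.0.1.1, with no scaling between arrays, on a probe grid built on mm9. The submitters' processing notes name version 10.7.3.1. Per the labels' protocols, RNA was depleted of ribosomal RNA and labelled with Cy3 by random priming. The authors' value table holds deposited log2 values of 29158 probes. In each array their order matched the scanner values (Spearman 1), its normalization is not given in the sources used here, and its column medians over the 6 arrays are 7.89, 7.89, 7.89, 7.88, 7.89 and 7.87.

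Control and outlier spots were left out, spots of a probe were averaged, and log2 signals were centred on each array's 75th percentile. The 75th percentile signal was 199 to 301 on the 6 arrays, whose number limits the precision. For a symbol with several probes the brightest stood for it, and symbols came from RefSeq accessions through reference tables used for names only. Differences were tested with limma 3.58.1 (lmFit, eBayes, two-sided) in R 4.3.3 with 1 mean per stage over 15 arrays. The fit was tested on simulated data. The members, gene lists and rules were chosen with earlier results of these data known. Named were each called or listed symbol, the 2 largest called rises and falls of each class above background on all 6 arrays, the largest bounds outside the maker's IDs, and the other strand of each named ultraconserved element. Alternatives covered scaling, background correction, filters, the samples in the fit, scan and replicate blocks, array weights and left-out arrays. Normexp (offset 50) used the spot's median signal, since the planned mean signal was absent from the scanner values. Quantile normalization with the scan block and the median over spots were chosen after seeing the data.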

Additional observations from a re-analysis of the deposited data

Results flagged for a closer look

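On E17.5 replicate 1, 55.8% of the negative-control spots, which the comparison does not use, were well above background. On the other 5 arrays of E14.5 and E17.5 the share was 4% to 6.58%. Without this array 1705 features were called higher and 335 lower at E17.5. Its part in the results was not tested further.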

How the results depend on the processing

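Of 32 named features that were called, 12 were called in the same direction under all 23 alternatives (the scan block and leaving out E17.5 replicate 3 give the same values), and of 30 that were not, 28 were called under none. No called named feature took the opposite sign under an alternative. The count of called features was 3254 with normexp and 4345 with array weights. The count of rises was 1123 within the first scan and 1021 with E17.5 replicate 2 alone. The count of falls was 893 with quantile normalization, 1040 with normexp, 665 with a common floor, 688 in the authors' table, 100 with no filter, 131 with only the 6 arrays, 1764 with array weights, 835 with the scan block, 516 with E17.5 replicate 2 alone and 1104 with quantile normalization and the scan block. Outside the maker's IDs the calls in all numbered 239 with normexp, 236 with the filter on at least 1 of 5 stages, 94 with only the 6 arrays and 304 with array weights. With 1 array left out the called features ranged from 1078 to 2613, the rises from 1034 to 1778, the falls from 44 to 835, the calls of at least 2-fold from 1074 to 2060 and the calls outside the maker's IDs from 75 to 179. Of the falls, the share called higher in adult than in neonatal liver was 10.2% with quantile normalization, 10.9% in the authors' table, 8.46% with the filter on both stages, 2.29% with only the 6 arrays, 16.9% with array weights, 11.6% with E17.5 replicate 2 alone and 7.06% to 9.94% with 1 array left out. The share called lower was 55% with array weights and 15.8% to 52.7% with 1 array left out. The cause of these shifts was not tested.

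Replicate numbers are shared between the stages, and same-numbered arrays correlated at −0.02, 0.01 and 0.07 in their deviations from the stage means. With so few arrays per stage these values cannot decide whether the numbers mark a pairing. With the replicate number as a block 2006 features were called, 1698 higher and 308 lower. Signals near background limit how well the changes of dim features are sized. Bounds were given only where a stage had no array above background.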
